A study of Mus musculus with 2 samples.

Results

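The arterial endothelial cells described here are 73 of 14047 barcodes from the retina of mouse pups at postnatal day 6, 9 in the control library and 64 in the library with an endothelial knockout of Alk1. They were chosen by transcript levels. Counts of unique molecular identifiers (UMIs, 1 per captured RNA molecule) were expressed as CPM, the usual scaling to the total of the cell. Cells had at least 5000 UMIs, at least 500 genes and a mitochondrial share of 1 to 10%, which 3236 control and 1730 knockout barcodes met. Endothelial cells had at least 2000 CPM summed over 8 endothelial genes and under 1000 CPM summed over 4 genes of mural cells, which wrap vessels. Of the 310 control and 947 knockout endothelial cells, arterial cells had at least 800 CPM summed over Gja4, Sema3g, Stmn2 and Gja5. They also lay below limits for cycling (Mki67 and Top2a under 200 CPM), tip (Esm1, Angpt2 and Kcne3 under 300 CPM) and barrier capillary transcripts (Mfsd2a, Spock2 and Slco1c1 under 800 CPM).

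Arterial endothelium carries blood from the heart under high flow and is specified by VEGF and Notch signalling, with SOX17 among its transcription factors. Its cells make connexin channels, the chemokine CXCL12 and elastic fibre proteins, and leave the cell cycle as they mature. ALK1, encoded by Acvrl1, is a receptor for BMP9 and BMP10 that signals through SMAD1 and SMAD5 with the co-receptor endoglin. Its loss in endothelium gives direct connections between arteries and veins, and its mutation causes hereditary hemorrhagic telangiectasia. The series compared 1 control library (genotype Alk1f/f) with 1 knockout library (Alk1f/f Cdh5 CreERT2, called Alk1 ECKO in its title). Both carried floxed Alk1, and the second added CreERT2, a Cre recombinase inducible by tamoxifen, under the endothelial Cdh5 promoter. The sources used here do not state the inducing treatment or how many pups each library pooled. Retinas were dissociated, enriched for endothelium with beads against CD31, and profiled with a 10x Genomics 3' kit.

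With 1 library per genotype no test was possible, so every difference between genotypes is a difference between 2 libraries, and genotype and library cannot be told apart. Intervals are at 95% and cover counting error only. The libraries held 54800465 control and 62728605 Alk1 ECKO UMIs. They shared 20 barcodes, none of them an arterial cell. The 9 control arterial cells summed to 155604 UMIs and the 64 Alk1 ECKO cells to 1571797, with medians of 19133 and 15142 UMIs per cell, so 3 UMIs correspond to 19.3 CPM and 1.91 CPM. The median mitochondrial share was 5.12% and 2.70%. Pooled transcripts of other cell types were low in most lists, though not in every cell. The 15 mural genes, 4 of them capped by the rule, summed to 6.43 and 90.3 CPM, the 7 erythroid genes to 0 and 1.27 CPM, the 12 microglial genes to 64.3 and 60.4 CPM, and the 16 neuronal genes, which bear on Stmn2 as a neuronal transcript, to 57.8 and 21.6 CPM. The 11 Müller glia and progenitor genes summed to 977 and 361 CPM, mostly Glul, which also stands in the arterial list. Astrocyte genes summed to 0 and 20.4 CPM and lymphatic genes to 38.6 and 37.5 CPM. Smooth muscle Acta2 and Myh11 were at 0 in both libraries. Of 10 rod genes 7 were detected in each library, with sums of 411 and 28.0 CPM and Gnat1 at 0 in both. Single arterial cells reached 2486 CPM of rod genes in control and 4385 CPM in Alk1 ECKO. The highest cells had 157 and 1158 CPM of microglial genes and 110 and 947 CPM of mural genes. The part of such cells and transcripts in the results below was not tested.

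The limits decided which arterial cells were counted, and they acted differently in each library. Before the cycling, tip and barrier limits, 36 control and 140 Alk1 ECKO endothelial cells passed the arterial minimum. The barrier limit alone set aside 23 of the 36 control cells and 26 of the 140 Alk1 ECKO cells. The arterial cells kept were 2.90% of endothelial cells in control (9 of 310, 1.34 to 5.44, Clopper-Pearson) and 6.76% in Alk1 ECKO (64 of 947, 5.24 to 8.55). Without the 3 limits the shares were 11.6% and 14.8%. Results that compare the libraries are therefore given beside those for the 36 and 140 cells without the limits, and for the 23 and 26 barrier cells past the arterial minimum. Both of these sets were chosen after seeing the data. The 36 and 140 cells include the 9 and 64 arterial cells, so values from them are not separate support.

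**Figure D1:**
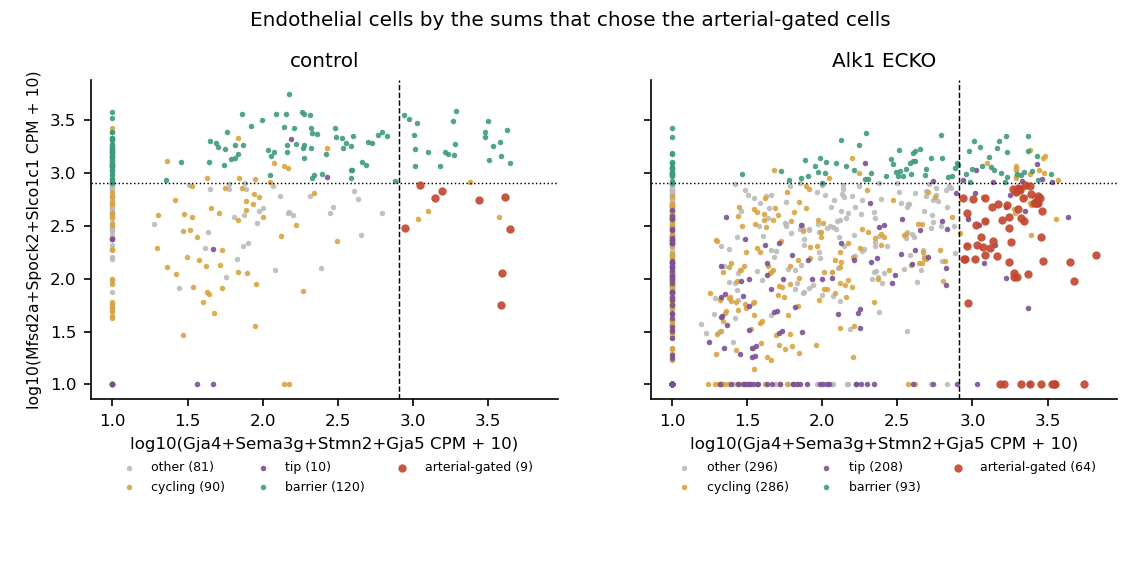
Each point is an endothelial cell, with the summed CPM of the 4 arterial genes on the x axis and of the 3 barrier genes on the y axis (both log10 of CPM + 10). Dashed and dotted lines mark 800 CPM, and colours mark the class, with cell numbers in brackets. Most control cells past the arterial minimum lie above the barrier limit, and 9 remain, while 64 remain in Alk1 ECKO.

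The sum of the 4 arterial genes, which chose the cells and is given as a description, ran from 874 to 4432 CPM in the 9 control cells (median 2749) and from 855 to 6636 CPM in the 64 Alk1 ECKO cells (median 1956). Just inside the minimum lay control cells at 874 and 1100 CPM and Alk1 ECKO cells at 855 and 873 CPM. The nearest cells outside it within the other limits had 614 and 442 CPM in control and 752 and 744 CPM in Alk1 ECKO. Gja4 (connexin 37) was the most abundant of the 4 genes in 6 of 9 control and 54 of 64 Alk1 ECKO cells, and made up a median of 47.6% and 77.3% of the sum. Pooled levels were 1330 and 1276 CPM for Gja4. Stmn2, a microtubule regulator of the stathmin family, was at 1099 and 326 CPM, the secreted semaphorin Sema3g at 321 and 98.6 CPM, and Gja5 (connexin 40) at 90.0 and 26.7 CPM. All 4 genes had a UMI in 3 of 9 and 11 of 64 cells, and 9 Alk1 ECKO cells held UMIs of 1 gene alone.

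**Figure D2:**
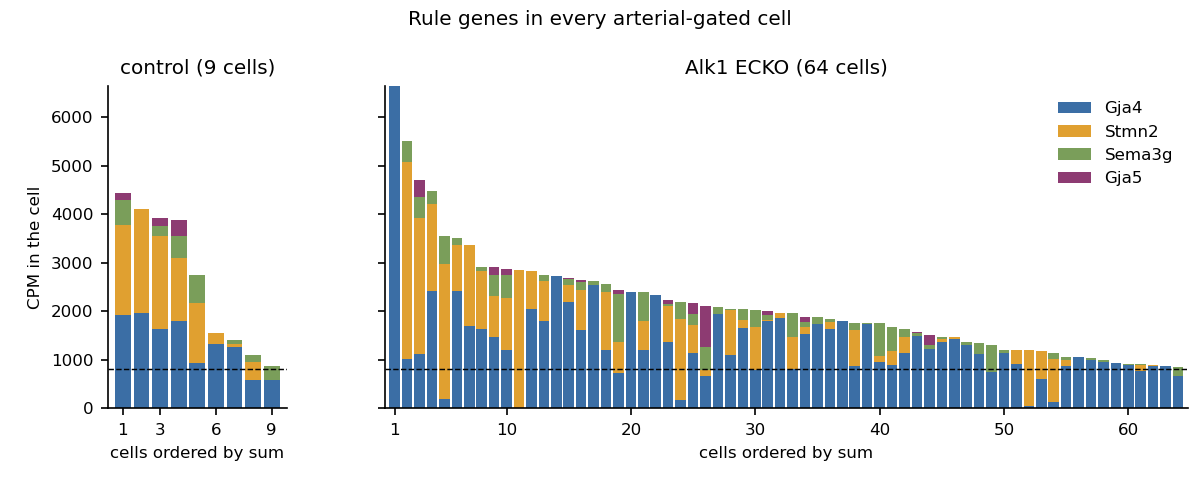
Stacked bars give the CPM of Gja4, Stmn2, Sema3g and Gja5 in each arterial cell, ordered by their sum, with a dashed line at the minimum of 800 CPM. Stmn2 fills much of the sum in the highest 5 control cells, and Gja4 alone carries most Alk1 ECKO cells.

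Arterial genes that the rule did not use were high in the same cells of both libraries. Each ratio below is a log2 ratio of CPM minus the median over all measured genes (at least 30 UMIs over both sums), so that the median gene stands at 0. A gene counted as past the fold when it lay at least 1.5-fold from that median with its interval on the same side. Against all other endothelial cells (301 control and 883 Alk1 ECKO), 353 of 10762 genes were higher in arterial cells in both libraries (3.28%) and 223 were lower in both (2.07%). The other cells included those past the arterial minimum that the cycling, tip and barrier limits had set aside. Of the 33 measured arterial identity genes outside the rule, 27 were higher in both libraries and none lower, with medians of 2.69 in control and 1.73 in Alk1 ECKO. That list was chosen with earlier results of these data known, so the count is a description and no independent support. Cxcl12, the chemokine ligand of CXCR4, was at 1247 and 397 CPM in arterial cells against 64.8 and 26.6 CPM in other endothelium, a ratio of 4.38 and 3.88. Cdkn1c, which encodes the cycle inhibitor p57, was at 328 and 293 CPM against 42.7 and 30.9 CPM. After every cell was thinned to 5000 UMIs, a Cxcl12 UMI was found in 7 of 9 and 35 of 64 arterial cells and in 2 of 1174 control rod cells (0.170%) and 0 of 77 Alk1 ECKO rod cells (which allows a share of up to 3.90%), which give the background. Cdkn1c was found in 7 of 9 and 37 of 64 arterial cells but also in 34.2% and 41.6% of rod cells, so a Cdkn1c UMI alone did not set these cells apart in this tissue.

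Among genes past the fold in both libraries with at least 50 CPM in each, the 15 highest outside the rule included matrix proteins and secreted signals. Fbln2, Fbln5, Eln and Ltbp4 belong to the elastic fibre. Fbln5 stood at 1048 and 218 CPM in control and Alk1 ECKO arterial cells, against 42.0 and 44.1 CPM in other endothelium. Mgp, a matrix protein that binds BMP ligands, had ratios of 6.93 and 3.22, with 3.52 and 34.4 CPM in other endothelium. Among signals, the Wnt inhibitor Dkk2 had ratios of 6.58 and 3.05 and the lymphatic growth factor Vegfc 4.15 and 2.81. Bmx, a non-receptor tyrosine kinase of arterial endothelium, had ratios of 5.36 and 3.96. Serpinf1, which encodes PEDF, an inhibitor of vessel growth, had 5.52 and 4.89. The taurine transporter Slc6a6 (2.69 and 2.86), Egfl8 (3.28 and 2.43) and Hey1, a Notch target (2.94 and 2.17), also stood among the 15 highest. The genomic positions of the genes followed most closely, from GENCODE vM21 on mm10, are chr6:117168535-117181367 for Cxcl12, chrX:164192842-164258193 for Bmx, chr12:101746565-101819055 for Fbln5 and chr4:127311421-127314039 for Gja4.

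Other groups were also higher in arterial cells of both libraries. Of 12 measured ALK1-SMAD target genes outside the rule, 10 were higher and none lower (medians 2.08 and 1.51), among them Id1 (2.38 and 1.31), which encodes an inhibitor of bHLH factors, and the feedback inhibitors Smad6 (2.65 and 2.86) and Smad7 (2.76 and 1.82). This list shares genes such as Ltbp4 and Hey2 with the arterial identity list, so the 2 counts are not independent. Klf2 and Klf4, transcription factors induced by flow, were at ratios of 2.03 and 0.84 and of 1.94 and 1.01. Of 18 measured genes for mural cell recruitment and vessel tone, 7 were higher and 1 lower, with Tgfb2 at 3.18 and 0.93 and Pdgfd at 3.28 and 1.45. Of 16 arteriovenous regulators 5 were higher, including Sox17 (2.06 and 1.19) and Mecom (2.03 and 1.02).

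Cycle genes outside the rule were lower: 19 of 28 measured were past the fold in both libraries and none higher, with medians of -1.40 and -1.94, although the rule itself removed cells rich in Mki67 and Top2a. Ccnd1 (cyclin D1), from the list of cycle inhibitors and G1 cyclins, was at -2.25 and -1.21. Among venous genes 2 of 18 were higher and 3 lower. Aplnr, the apelin receptor of veins and capillaries, was at -3.85 and -0.79, and Nr2f2, the venous transcription factor COUP-TFII, at -1.36 and -0.48. Vcam1, an adhesion molecule counted in that list, was higher in the arterial cells (3.56 and 2.55), and at 1.46 in control without the deepest cell. The tip cell ligand Apln was at 0 UMIs in control arterial cells and at 63.0 CPM in Alk1 ECKO, against 166 and 449 CPM in other endothelium. The rule set tip cells aside and they stayed in the other endothelium, so a lower Apln was partly built into the classes.

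The 36 arterial identity genes outside the rule, a list chosen with earlier results known, were summed as CPM in each endothelial class. The sums also showed how far single cells varied. Control arterial cells ran from 10805 to 30297 CPM (median 24512) and Alk1 ECKO arterial cells from 2792 to 36212 CPM (median 12379), so the libraries overlapped. Barrier cells past the arterial minimum had medians of 13881 and 12305 CPM. Tip cells had medians of 4791 and 5247 CPM, and cells that passed no gate 2899 and 3383 CPM. The 9 control arterial cells thus held the highest median of the classes plotted, with a median above that of the 23 control cells the barrier limit had set aside.

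**Figure D3:**
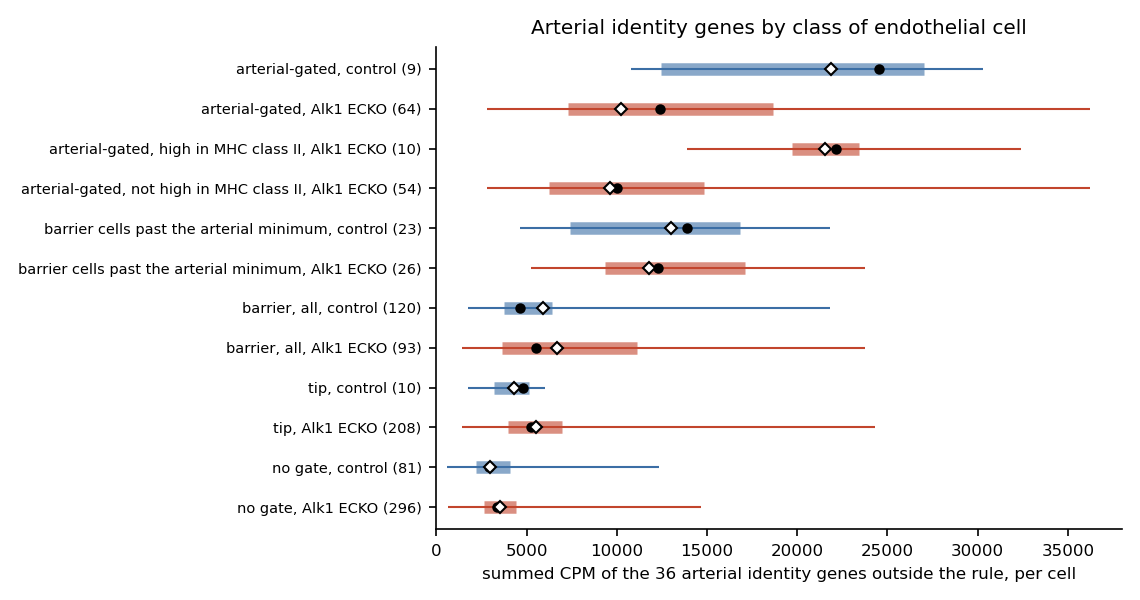
Thin lines give the range, thick bars the quartiles, black dots the median and white diamonds the pooled value of the summed CPM of 36 arterial identity genes per cell, for control (blue) and Alk1 ECKO (red), with cell numbers in brackets. Control arterial cells and the 10 Alk1 ECKO arterial cells high in MHC class II have medians of 24512 and 22144 CPM, while the other 54 Alk1 ECKO arterial cells have a median of 10040 CPM.

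The promoters of 3 arterial genes that differed between the libraries are shown because they hold the core motif of RBPJ, the DNA-binding partner of Notch. The 250 bases before the transcription start are RefSeq sequence of GRCm38.p6, written 5′ to 3′ on the strand of the gene, with motifs in capitals. The letters searched were TGGGAA for RBPJ, which reads TTCCCA on the other strand, and GGCGCC for the GC-rich core bound by SMAD1 and SMAD5, which reads the same on both strands. The genes were chosen after these matches were seen, and Fbln5 has a second RefSeq start without TGGGAA.
Cxcl12, chr6:117168285-117168534, plus strand: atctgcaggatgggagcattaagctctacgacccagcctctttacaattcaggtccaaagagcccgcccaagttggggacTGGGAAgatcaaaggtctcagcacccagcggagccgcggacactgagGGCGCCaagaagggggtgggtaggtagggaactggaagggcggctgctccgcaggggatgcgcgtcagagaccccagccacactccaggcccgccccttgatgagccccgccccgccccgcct
Fbln5, chr12:101819120-101819369, minus strand: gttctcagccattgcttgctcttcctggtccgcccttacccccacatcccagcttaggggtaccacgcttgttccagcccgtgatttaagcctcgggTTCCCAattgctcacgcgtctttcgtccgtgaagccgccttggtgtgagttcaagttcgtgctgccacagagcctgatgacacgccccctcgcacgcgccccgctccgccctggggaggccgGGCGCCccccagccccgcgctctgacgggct
Bmx, chrX:164258194-164258443, minus strand: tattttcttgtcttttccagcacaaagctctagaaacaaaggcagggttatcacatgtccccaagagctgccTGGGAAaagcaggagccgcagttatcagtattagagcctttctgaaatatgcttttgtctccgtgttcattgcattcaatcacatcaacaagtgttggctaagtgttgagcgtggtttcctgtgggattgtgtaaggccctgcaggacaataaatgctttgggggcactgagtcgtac
TGGGAA begins 170 bases before the start of Cxcl12 and 178 before that of Bmx, and TTCCCA 153 before that of Fbln5. Among all 32851 promoters of this length 21.6% held the RBPJ core and 9.59% the GC-rich core, and counted by gene 24.1% and 10.8% of 27025 genes did. Of the 29 arterial identity genes with a promoter, 5 held the RBPJ core (17.2%, below the share of all genes: Bmx, Cxcl12, Depp1, Fbln5 and Hey2) and 9 the GC-rich core (31.0%). These matches describe letters in a window and show no binding.

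The comparison of Alk1 ECKO with control asked what differed within arterial cells when endothelium carried the Cre driver. The targeted gene, Acvrl1, was at 289 and 180 CPM in control and Alk1 ECKO arterial cells (45 and 283 UMIs), a ratio of -0.65 (-1.11 to -0.16). Per cell it ran from 195 to 418 CPM in control (median 287) and from 0 to 722 CPM in Alk1 ECKO (median 183), so the cells overlapped, and a UMI was found in 9 of 9 and 58 of 64 cells. In the 36 and 140 cells without the limits the ratio was -0.27, in the barrier cells -0.03, and in other endothelium 0.28. The deleted exons are not named in the sources used here, and the 3' tags may lie outside them, so this level does not check the deletion.

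Of 6337 genes measured in arterial cells, 427 were higher in Alk1 ECKO (6.74%) and 581 lower (9.17%). A gene seen in 1 library alone had to reach 193 CPM in control or 19.1 CPM in Alk1 ECKO to be measured, so genes low in control entered mainly through Alk1 ECKO. Of the 427 higher genes, 43 had 0 control UMIs and 115 had at most 3. Arterial identity genes were mostly lower: of 32 measured outside the rule, 22 were lower, 1 was higher, and the median was -1.12 against 0 for all measured genes. In other endothelium the median of these genes was 0.15. The size of this difference rested on which cells were counted. In the 36 and 140 cells without the limits 10 were lower and 4 higher, with a median of -0.28. In the barrier cells 6 were lower and 4 higher, with a median of -0.13. With the mean of per-cell CPM in place of summed UMIs, 16 of 32 were lower and 1 higher, with a median of -0.62. The cause of these differences was not tested. Of the 22 genes lower in arterial cells, 6 were past the fold in both other sets: Cxcl12, Vegfc, Slc6a6, Glul, Azin1 and Depp1.

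Cxcl12, a marker of the label, was among them. Its level per control cell ran from 0 to 8405 CPM (median 697) and per Alk1 ECKO cell from 0 to 2614 CPM (median 124), so the cells overlapped. The control cell at 8405 CPM had 5116 UMIs in all, the fewest of the 9, and a deeper cell held 31.4% of the control Cxcl12 UMIs. The pooled ratio was -1.62 (-1.85 to -1.38), and it was -1.32 without the limits, -0.98 in barrier cells and -1.04 in other endothelium. Vegfc was at 341 and 88.4 CPM (ratio -1.91), with -0.81 without the limits and -0.84 in barrier cells. Slc6a6 was at 1472 and 669 CPM (-1.10), with -0.91 and -0.87. Glul, glutamine synthetase, which is also a Müller glia marker, was at 945 and 340 CPM (-1.44), with -1.51 in both other sets.

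Elastic fibre and signalling genes lower in Alk1 ECKO arterial cells had ratios nearer 0 or above it in the other sets, and the difference between sets was not tested. Fbln5 ran from 0 to 3868 CPM per control cell (median 195) and from 0 to 3354 CPM per Alk1 ECKO cell (median 172), and 1 control cell held 45.4% of its control UMIs. Its pooled ratio was -2.23, with -0.74 without the limits and -0.13 in barrier cells. Eln was at 231 and 102 CPM (-1.14), but 1 of the 9 control cells held 77.8% of its control UMIs. Without the cell richest in Eln in each library the ratio was 0.43, by mean per-cell CPM 0.36, without the limits 0.67 and in barrier cells 1.68, so its direction depended on which cells were counted. The same control cell, of 19133 UMIs, held the 45.4% of Fbln5 and the 77.8% of Eln. It also had the highest Bmx of the control cells, at 1045 CPM, so these genes are not separate support. Dkk2 was at 463 and 59.2 CPM (-2.93), with -0.32 without the limits and 0.37 in barrier cells. Bmx was at 398 and 77.6 CPM (-2.33), with -0.85 and -0.57. Jag1, the Notch ligand with a role in smooth muscle recruitment, was at 360 and 87.8 CPM (interval -2.46 to -1.53), with -0.48 and -0.31. Ltbp4 was at 591 and 169 CPM (-1.78) and Fbln2 at 366 and 98.6 CPM (-1.86), but in barrier cells they stood at 0.13 and 0.10. Per control cell Ltbp4 ran from 0 to 1369 CPM, and most of the 9 cells were at 0. Tm4sf1, a tetraspanin-like membrane protein, was at 3856 and 1193 CPM (-1.66), with -0.46 and -0.14.

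Of the other markers and regulators of arterial identity, some passed the fold and some did not. Cdkn1c was at 328 and 293 CPM (-0.13, -0.55 to 0.32), and Hey1 at 186 and 123 CPM (-0.57, -1.14 to 0.05), neither past the fold. Sox17 was at 572 and 294 CPM (-0.93), with -0.73 without the limits and -0.42 in barrier cells. Efnb2, the arterial ephrin ligand, was at 456 and 220 CPM (-1.02), with -0.45 and -0.44. The VEGF-induced Notch ligand Dll4 was at 96.4 and 111 CPM (0.23, -0.53 to 1.10). Igfbp3 was the list's gene past the fold upward, at 308 and 483 CPM (0.68), with 1.88 without the limits and 0.96 in barrier cells.

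Mgp was detected in few cells. It was at 398 and 326 CPM in arterial cells (-0.26, -0.64 to 0.15), from 5 of 9 and 26 of 64 cells, and 1 control cell held 77.4% of its control UMIs. That cell was also the control cell richest in Fbln5 and Eln. Without the cell richest in Mgp in each library the ratio was 1.47, by mean per-cell CPM 1.38, and without the MHC class II cells described below -0.93. Without the limits it was 1.96, in barrier cells 3.86 and in other endothelium 3.54. The pooled arterial ratio of Mgp thus had no fixed direction, while other endothelium held 3.52 and 34.4 CPM.

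**Figure D4:**
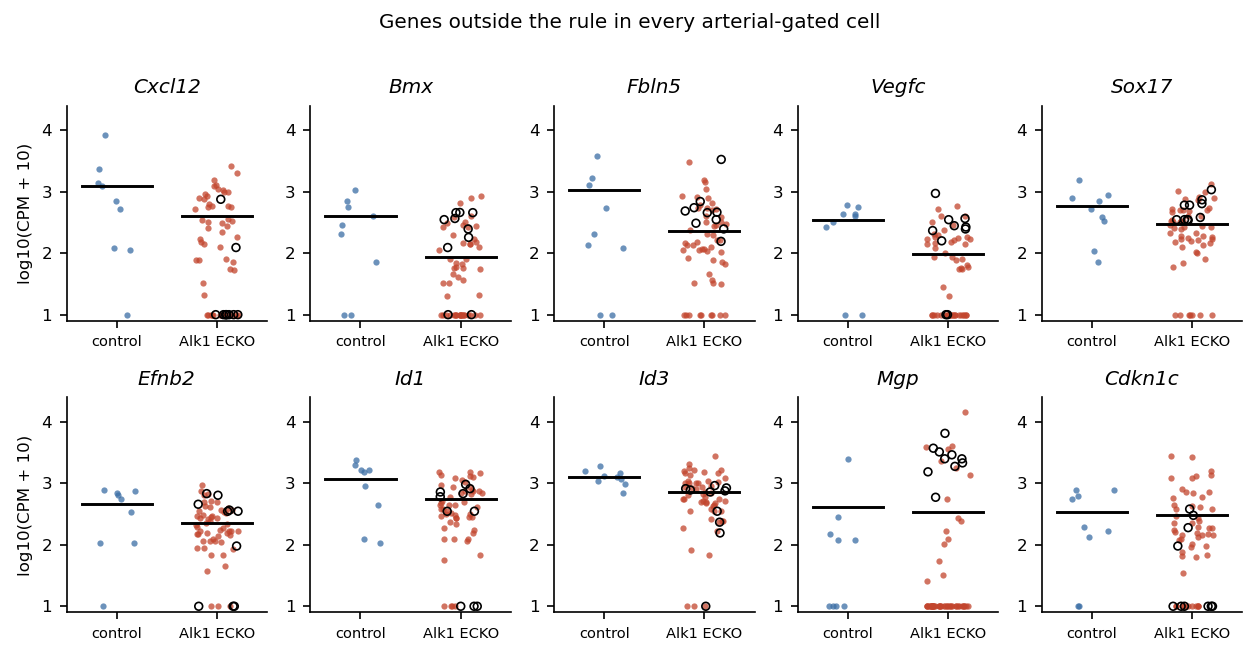
Points give log10(CPM + 10) of 10 genes outside the rule in each arterial cell of control (9 cells, blue) and Alk1 ECKO (64 cells, red), bars the pooled CPM, and open black circles the 10 Alk1 ECKO cells high in MHC class II. The cells of both libraries overlap for each gene, and of the open circles none is at 0 for Mgp, while 8 are at 0 for Cxcl12 and 6 for Cdkn1c.

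ALK1-SMAD target genes were split in direction. Of 12 measured outside the rule, 5 were lower in Alk1 ECKO arterial cells, 2 were higher, and the median was -0.62. Without the limits 1 was lower and 3 were higher (median 0.11), and in barrier cells none was lower and 4 were higher (median 0.35), so the list had no common direction across these sets. Id1 ran from 97.2 to 2396 CPM per control cell (median 1520) and from 0 to 1523 CPM per Alk1 ECKO cell (median 389). Its pooled levels were 1176 and 551 CPM (-1.06), with -0.42 without the limits and 0.15 in barrier cells. Id3, of the same family, was at 1260 and 722 CPM (-0.77), with -0.68 and -0.46, and at -0.81 in other endothelium. Id2 was at 141 and 87.2 CPM (-0.67, -1.32 to 0.06). Tmem100, a transmembrane protein induced by BMP9, was at 231 and 81.4 CPM (-1.47), but at 0.09 without the limits and 0.43 in barrier cells.

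The inhibitors of the pathway differed among themselves. Smad7 was at 411 and 233 CPM (-0.78) but at 0.45 without the limits and 0.67 in barrier cells. Smad6 was at 38.6 CPM from 6 UMIs in control and at 82.1 CPM from 129 UMIs in Alk1 ECKO (1.12, -0.04 to 2.60), with 2.09 and 2.32 in the other sets. Bambi, a pseudoreceptor that lacks kinase activity, was at 96.4 and 316 CPM (1.75), with 0.81 and 0.59. Cdkn1a, which encodes the cycle inhibitor p21, was at 83.5 and 157 CPM (0.94), with 1.99 and 1.92, and at 1.51 in other endothelium. Bambi and Cdkn1a were the listed genes past the fold upward in all 3 sets. In control arterial cells both lay under the 193 CPM at which control alone made a gene measured. The set without the limits includes the arterial cells, so the 3 sets are not separate.

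**Figure D5:**
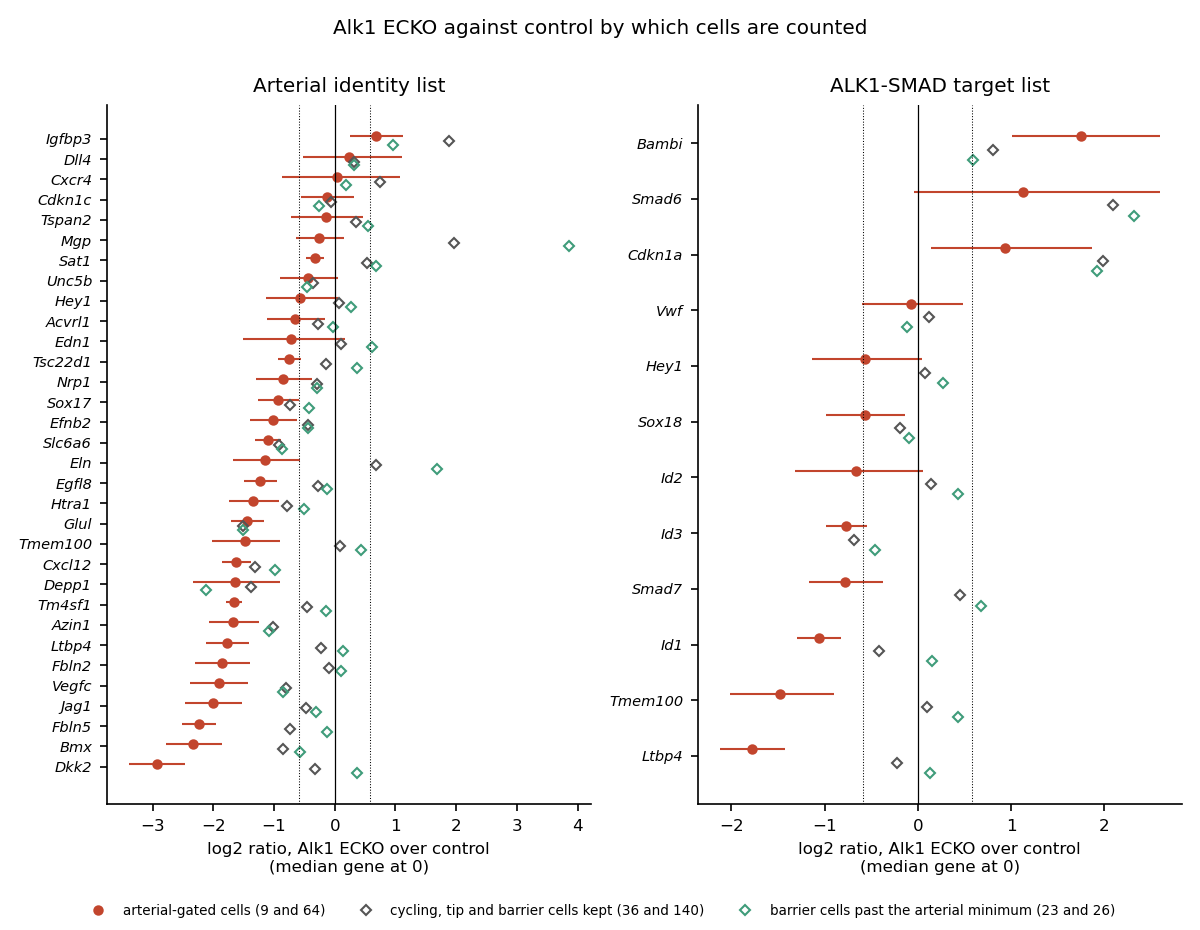
Log2 ratios of Alk1 ECKO over control, with the median gene at 0, for the measured genes of the arterial identity list (left) and the ALK1-SMAD target list (right). Red points with 95% counting intervals are the 9 and 64 arterial cells, grey diamonds the 36 and 140 cells without the 3 limits, green diamonds the 23 and 26 barrier cells past the arterial minimum, and dotted lines mark 1.5-fold. Most red points on the left lie below 0, while the diamonds lie nearer to 0 or above it.

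Receptors and SMAD proteins had few genes past the fold. Of 11 measured genes of the ALK1 complex and its relatives, 1 was lower, Acvrl1 itself, and 1 higher, the signal transducer Smad1 (70.7 and 174 CPM, 1.33), with 1.23 without the limits and 0.54 in barrier cells. Eng, the co-receptor endoglin, was at 328 and 457 CPM (0.51, 0.10 to 0.95) and did not pass the fold, but did in barrier cells (0.65). Bmpr2, the type II receptor, was at 347 and 247 CPM (-0.46, -0.87 to -0.02) and did not pass it either, but did without the limits (-0.74).

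Among 15 measured arteriovenous regulators 4 were lower and 1 higher (median -0.35). Mecom, a transcription factor of arterial endothelium, was at 880 and 281 CPM (-1.61) and remained lower without the limits (-1.04) and in barrier cells (-0.92). The venous regulator Nr2f2 was at 25.7 CPM from 4 UMIs and at 25.4 CPM (0.02, -1.45 to 1.96), too few for a statement. Of 18 measured Notch pathway genes, 5 were lower and 3 higher (median -0.06). Ligand Jag1 and ligand Jag2 (180 and 85.9 CPM, -1.03) were lower, while the targets Hes1 (109 and 265 CPM, 1.31) and Nrarp (90.0 and 170 CPM, 0.95) were higher. Hes1 stood at 0.25 and 0.17 in the other sets and Nrarp at 1.61 and 1.08. The receptor Notch1 was at 186 and 251 CPM (0.46, -0.08 to 1.06). Among connexins outside the rule, Gja1 (connexin 43) was at 83.5 and 176 CPM (1.11), but at -0.01 without the limits and -0.30 in barrier cells.

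Klf2 and Klf4 did not pass the fold in arterial cells, while both were higher in other endothelium and in the barrier cells past the arterial minimum. Klf2 was at 848 and 849 CPM (0.03, -0.23 to 0.30) against 1.32 in other endothelium and 0.73 in barrier cells, and Klf4 at 308 and 251 CPM (-0.27, -0.70 to 0.20) against 0.74 and 0.60. The difference between the classes was not tested. Of 15 measured genes of the flow list, none was higher and 4 were lower (median -0.22): Thbd (thrombomodulin, -2.09), the adhesion molecule Vcam1 (-1.79), Tek (the TIE2 receptor, -1.39) and Cav1 (caveolin 1, -0.87). Vcam1 rested on 1 cell: without the deepest cell of each library its ratio was 0.40, and without the cell richest in it 0.18. Piezo1, the stretch-gated channel named in the series title, had 6 UMIs in control (38.6 CPM) and 107 in Alk1 ECKO arterial cells (68.1 CPM), a ratio of 0.85 (-0.32 to 2.33). It was at 0.08 without the limits, -0.10 in barrier cells and -0.22 in other endothelium, so a difference was not detectable at this depth. Piezo2 had 2 and 113 UMIs (2.52, 0.63 to 5.58), with 1.24 and 1.04 in the other sets. Of 9 measured mechanosensitive channel genes, 1 was higher (Piezo2) and 1 lower (Trpm7). Piezo2 was measured only through Alk1 ECKO, so it could only come out higher.

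Of 16 measured genes for mural cell recruitment and vessel tone outside the rule, 6 were lower and 1 was higher (median -0.28). Tgfb2, a TGF-beta ligand, was at 617 and 90.3 CPM (-2.74), with -1.16 without the limits and -0.41 in barrier cells. Calcrl, the adrenomedullin receptor, was at 283 and 54.7 CPM (-2.34) and stayed past the fold in both other sets (-1.96 and -1.49), as did Tek (-1.12 and -0.85). Of 22 measured matrix genes 6 were lower and 5 higher (median 0.23). Beside the elastic fibre genes, Fbn1, which encodes fibrillin, was at 180 and 22.9 CPM (-2.94). On the other side were basement membrane and capillary matrix genes: Lamb1 at 45.0 and 145 CPM (1.72), Col4a1 at 1542 and 2278 CPM (0.60), Sparcl1 at 540 and 1622 CPM (1.62) and the proteoglycan Bgn, with 1 UMI in control and 194 in Alk1 ECKO (4.30, 1.80 to 9.61). Bgn was measured only through Alk1 ECKO, so it could only come out higher.

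Among transcripts of veins and capillaries, those with few or no UMIs in the 9 control cells were measured only through Alk1 ECKO, so they had to come out higher there and their number is not counted. Slc38a5, a glutamine transporter of veins and barrier capillaries, had 0 UMIs in control and 149 in Alk1 ECKO (94.8 CPM), a ratio of at least 2.33 against the floor of 3 counts per library. A UMI was found in 25 of 64 Alk1 ECKO cells and in 0 of 9 control cells, which allows a share of cells with a UMI of up to 33.3% and sets no limit on cells expressing the gene. Aplnr had 2 and 117 UMIs (2.57, 0.68 to 5.63), and Emcn, a sialomucin of veins and capillaries, was at 70.7 and 286 CPM (2.05). Without the limits these 3 genes stood at 0.34, 0.73 and 0.92, and in barrier cells at 0.15, -0.16 and 0.44.

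Of 20 measured barrier transport genes outside the rule 8 were higher and 3 lower (median 0.46). Without the limits 3 of 23 were higher and 3 lower (median -0.35), and in barrier cells 1 of 22 was higher and 2 were lower (median -0.053), so the list had no common direction. The heavy chain of amino acid exchangers, Slc3a2, was at 328 and 673 CPM (1.07) and its partner Slc7a5 at 51.4 and 107 CPM (1.09). Basigin (Bsg), which escorts monocarboxylate transporters, was at 983 and 2056 CPM (1.10). These 3 genes stood at -0.32 to 0.02 without the limits. The organic anion transporter Slco1a4 (167 and 34.4 CPM, -2.25) and the efflux pump Abcb1a (180 and 103 CPM, -0.77) were lower, and Abcb1a stayed lower in both other sets (-0.96 and -0.81). The Wnt target Apcdd1 was at 32.1 and 147 CPM (2.23), with 0.09 and 0.13 in the other sets. Of 22 measured tip cell genes outside the rule 7 were higher and none lower (median 0.58). Without the limits 9 of 22 were higher (median 0.43), and in barrier cells none of 18 was (median 0.054). The rule removed tip cells, and tip genes with few or no control UMIs were measured only through Alk1 ECKO. Apln was such a gene, with 0 and 99 UMIs, at least 1.74 higher against the floor. Such genes had to come out higher, so the count of tip genes in arterial cells is not read as a result.

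Cycle genes were too low in the 9 control cells to be compared as a group, since the rule removed cycling cells and genes at 0 in control were measured only through Alk1 ECKO. Cdk1, Ube2c, Birc5 and Cenpf were at 0 UMIs in control and at 32.4 to 66.2 CPM in Alk1 ECKO arterial cells. Birc5 and Cenpf rested on 1 cell, without which their ratios against the floor were -0.09 and -0.25. Ccnd1 was at 51.4 and 168 CPM (1.74), with 1.85 and 1.26 in the other sets. Of 24 measured hypoxia and glycolysis genes 6 were higher and 1 lower (median 0.59), against 5 of 26 higher and 2 lower without the limits (median 0.29) and none of 20 higher and 1 lower in barrier cells (median 0.15). Among the 6 were Pkm (238 and 533 CPM, 1.20) and Ldha (199 and 351 CPM, 0.85), with 0.78 and 0.63 in other endothelium.

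Immediate early genes were higher in Alk1 ECKO in each set of cells. In arterial cells 10 of 14 measured were higher and none lower (median 1.49), and the median was 1.12 in other endothelium, 1.14 without the limits and 1.06 in barrier cells. Fos was at 70.7 and 496 CPM (2.84) and Jun at 193 and 685 CPM (1.86). Such transcripts are also known to respond to tissue dissociation, and genotype and preparation cannot be told apart with 1 library each.

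By size alone, the genes lowest in Alk1 ECKO arterial cells were led by Nebl, an actin-binding protein of the nebulin family, at 469 and 37.5 CPM (-3.61, -4.13 to -3.10), with -2.16 without the limits and -1.72 in barrier cells. Per control cell Nebl ran from 0 to 1394 CPM. The deepest control cells, of 27754 and 25828 UMIs, were at 793 and 1394 CPM and weighed most in its pooled level. The proprotein convertase Pcsk5 (231 and 22.9 CPM, -3.30), Wfdc1 (289 and 35.6 CPM, -2.99) and the transcription factor Gata6 (83.5 and 12.1 CPM, -2.76) were also among the 12 lowest, with -1.51, -1.69 and -1.37 without the limits. The highest genes were led by Bgn, by Mest, an imprinted gene, with 3 UMIs in control and 407 in Alk1 ECKO (3.78, 2.22 to 6.06), and Gpihbp1, the anchor of lipoprotein lipase on capillaries (1 and 111 UMIs, 3.49, 0.98 to 8.81). Control levels of the 12 highest genes rested on 1 to 8 UMIs each. These genes reached the minimum of 30 UMIs only through Alk1 ECKO, so their rank is not read as a result. Mest stayed higher without the limits (1.80) and in barrier cells (1.18), as did Prnd (2.94, 1.63 and 1.13) and Bgn (1.03 and 2.06), while Rgcc (2.83) stood at 1.13 and 0.48.

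A subset of 10 of the 64 Alk1 ECKO arterial cells held transcripts of MHC class II (H2-Aa, H2-Ab1, H2-Eb1 and Cd74 summed to at least 500 CPM, here 746 to 3946 CPM), and none of the 9 control cells did. Cells were split by these genes, so their levels are no result. Over all arterial cells, 3 of 12 measured MHC class II and interferon genes were higher in Alk1 ECKO and 1 was lower. Without the limits 13 of 16 were higher and none lower (median 1.25), and in barrier cells 5 of 11 were higher and none lower (median 0.77). In the subset Mgp was at 2561 CPM against 203 CPM in the other 54 cells, Dkk2 at 451 against 37.6 CPM, Eln at 537 against 78.5 CPM, Jag1 at 439 against 68.5 CPM, Ltbp4 at 768 against 136 CPM and Bmx at 268 against 67.1 CPM. The interferon-inducible GTPases Igtp (683 against 21.5 CPM) and Iigp1 (476 against 18.1 CPM) were higher as well. Cxcl12 was at 61.0 against 415 CPM, Cdkn1c at 85.4 against 304 CPM and Mest at 12.2 against 273 CPM. Slc38a5, Aplnr, Cxcr4 and Piezo2 had no UMI in the subset. The cells nearest under the cut, at 488 and 494 CPM of MHC class II, had Mgp at 1789 and 3653 CPM and no Cxcl12 UMI. They count among the other 54, as does a cell with no MHC class II UMI and 14452.5 CPM of Mgp. High Mgp thus also occurred outside the subset. The summed arterial identity genes reached a median of 22144 CPM in the subset, beside the control median of 24512 CPM and 10040 CPM in the other 54 cells.

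The subset was shallower, with a median of 8386 UMIs per cell against 17971. Of 12 microglial genes 6 were detected in it, summing to 281 CPM against 48.3 CPM in the other cells, mainly Laptm5 (16 UMIs), with C1qa, C1qb, Csf1r and Cx3cr1 at 0. Their part in these differences was not tested. The subset held 210 of the 513 Mgp UMIs of Alk1 ECKO arterial cells. Without these 10 cells the arterial identity median against control was -1.19, with 24 of 32 genes lower and 1 higher.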

How the data were processed

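The deposited files hold whole-number UMI counts per gene and barcode, which the authors made with Cell Ranger. The file headers name version 5.0.1, and the submitters' processing notes name FastQC 0.11.9, Cell Ranger 6.1.1 and mm10. The notes and headers differ, and which version made the matrices was not settled. Counts were read with scipy 1.17.1 in Python 3.11.15, with numpy 2.4.6 and pandas 2.3.3. No cell was removed as a doublet: Scrublet, through scanpy 1.11.5, called 2 of 7909 and 11 of 4237 barcodes, too few to have worked, so the highest scores were removed as an alternative. UMIs were summed per class and library, and ratios were centred on the median measured gene. Genes with 0 UMIs in a library were set at a floor of 3 counts per library. Intervals are exact conditional binomial for ratios and Clopper-Pearson for shares. With 1 library per genotype no test was run. The code was tested on simulated data.

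The cells and gene lists were chosen with earlier results of these data known. Named genes were those of the rule, the listed genes, the 15 highest and 10 lowest genes of arterial against other endothelial cells, and the 12 highest and 12 lowest between libraries. Those ranked genes had at least 50 CPM. Left out of these ranks were genes of mitochondria, ribosomes and haemoglobin, genes of the Y chromosome and of X inactivation, predicted genes, markers of other cell types and genes higher in non-endothelial cells; other genes on the X chromosome stayed in. Other settings changed the cell filters, the arterial minimum, the centring, the minimum UMIs and the weighting of cells.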

Additional observations from a re-analysis of the deposited data

Results flagged for a closer look

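Among genes past the fold in both arterial and other endothelial cells, 29 of 344 differed between the libraries in opposite directions, 20 of them lower in Alk1 ECKO arterial cells and higher in other Alk1 ECKO endothelium. Those given here are the listed or named genes among them. The difference between the classes was not tested for any of them. Tm4sf1 was at -1.66 in arterial cells and 0.85 in other endothelium, Dkk2 at -2.93 and 0.67, and Cav1 at -0.87 and 0.70. In the other direction were Apcdd1 (2.23 and -0.96), the venous carboxypeptidase Prcp (0.96 and -0.59), the amino acid transporter Slc7a1 (0.99 and -1.15) and Slc38a5 (at least 2.33, and -0.60). Slc38a5 had no UMI in control arterial cells and was measured there only through Alk1 ECKO. It could only come out higher, yet it is counted among the 29, so its opposite direction is not read as a result. Apcdd1, Prcp and Slc7a1 were at 32.1, 90.0 and 148 CPM in control arterial cells. These levels lie under the 193 CPM at which control alone made a gene measured. Those genes needed Alk1 ECKO UMIs to be measured, so the minimum of UMIs favoured a higher ratio for them.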

How the results depend on the processing

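Over 16 alternatives, the 90 genes named as past the fold between libraries gave 1404 values, of which 1375 kept their direction and 29 reversed. Most alternatives reused much the same cells, and genes measured only through Alk1 ECKO are among the 90, so this count is no independent support. The 2 sets of cells chosen after seeing the data moved the results most. Without the limits 58 of 104 gene ratios between libraries moved beyond their counting interval and 8 more reversed. In the barrier cells 53 of 94 moved and 15 more reversed. Without the cycling, tip and barrier limits the shares were 11.6% in control and 14.8% in Alk1 ECKO, 699 genes were higher in Alk1 ECKO, 596 were higher and 629 lower in arterial than in other endothelium, and the arterial identity median was -0.28 and the ALK1-SMAD target median 0.11. Medians of other lists changed sign for cell cycle (-0.063), CXCL12 signalling (0.74), VEGF genes (0.12), barrier transport (-0.35), mural recruitment (0.087), flow (0.063) and mechanosensitive channels (0.017). Genes reversed for Birc5 (-0.049), Cenpf (-0.46), Eln (0.67), Gja1 (-0.012), Slc7a1 (-0.78), Slc7a5 (-0.32), Smad7 (0.45) and Tmem100 (0.093). In the barrier cells past the arterial minimum 666 genes were higher and 684 lower than in other endothelium, and the medians were -0.13 for arterial identity, 0.35 for ALK1-SMAD targets, -0.17 for connexins, -0.13 for venous genes, -0.053 for barrier transport, -0.16 for inflammation, 0.17 for cycle inhibitors and 0.0015 for Wnt genes, each of the last 6 with changed sign. There Aplnr (-0.16), Dkk2 (0.37), Eln (1.68), Fbln2 (0.10), Gja1 (-0.30), Id1 (0.15), Lamb1 (-0.14), Ltbp4 (0.13), Nectin2 (-0.39), Prcp (-0.13), Sema6d (-0.062), Slc7a1 (-0.59), Slc7a5 (-0.059), Smad7 (0.67) and Tmem100 (0.43) reversed. By mean per-cell CPM the arterial identity median was -0.62 and Eln 0.36, and beside Eln 35 of 104 gene ratios between libraries and 28 of 56 against other endothelium moved beyond their counting interval. Arterial minima of 500 and 1200 CPM moved 18 and 29 of those 56. Without the cell richest in the gene, Eln (0.43), Vcam1 (0.18), Birc5 (-0.095) and Cenpf (-0.25) reversed, and without the deepest cell Vcam1 (0.40). A minimum of 100 UMIs left 261 genes higher and 357 lower, since fewer genes were measured, and an arterial minimum of 500 CPM gave an Alk1 ECKO share of 8.66%. The cause of the other shifts was not tested.

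No paired analysis was possible because each genotype had 1 library, and no replicate was left out for the same reason. The control sum of 155604 UMIs sets the depth of the comparison: genes under about 19.3 CPM lie below 3 counts.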

Other observations

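Further gene groups were compared between the libraries within arterial cells, where 6.74% of all measured genes were higher and 9.17% lower; with so few genes a list, counts of 1 or 2 lie near those shares. Of 14 measured guidance genes outside the rule, 1 was higher in Alk1 ECKO (Sema6d, 1.06) and 2 were lower (Efnb2 and Nrp1, a semaphorin and VEGF co-receptor, -0.85). Of 7 measured VEGF ligand and receptor genes 3 were lower: Nrp1, Vegfc and the phosphatase Ptprb (1350 and 482 CPM, -1.45). Of 12 measured junction genes 1 was higher (Nectin2, 1.48) and 1 lower (Jam2, -0.73). Of 8 inflammation and adhesion genes 1 was higher (Nfkbia, 379 and 828 CPM, 1.16) and 2 lower (Vcam1 and Icam2, -0.68). Of 17 Wnt and norrin genes 2 were higher and 2 lower, of 9 lipid genes 2 were higher (Gpihbp1 and Apod), and of 7 heat shock genes 1 was higher (Hspe1, 0.88). Gpihbp1 was measured only through Alk1 ECKO, so it could only come out higher. Of 10 cycle inhibitors and G1 cyclins 2 were higher (Cdkn1a and Ccnd1) and 3 lower (Rb1 at -1.75, Btg1 at -0.80 and Ccnd2 at -1.09).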
